A study of Mus musculus with 22 samples.

Results

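The genes described are those of 10 enzymes of glycolysis, 1 for each step from glucose to pyruvate: Hk1, Gpi1, Pfkm, Aldoa, Tpi1, Gapdh, Pgk1, Pgam1, Eno2 and Pkm. They were chosen by symbol, and 10 of 10 were present among the 12596 genes of the table. Glycolysis is the cytosolic route that splits glucose into pyruvate and yields ATP and NADH. Its pyruvate either enters mitochondria for the tricarboxylic acid cycle or is turned into lactate. In brain tissue both neurons and glia express the pathway, often with different isozymes of a step, and neurons are known to meet much of their energy demand by oxidation in mitochondria.

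The RNA came from 11 mice on a C57Bl/6 background, each sampled as an immunoprecipitate (IP) and as the starting RNA (input), 22 libraries in all. Every animal, controls included, carried a Th-cre transgene, in which the tyrosine hydroxylase promoter drives Cre, and an Slc6a2-eGFP/Rpl10a transgene, in which regulatory sequence of the noradrenaline transporter gene drives a ribosomal protein fused to green fluorescent protein. The tag allows ribosomes with their RNA to be pulled out of noradrenergic cells, and the labels call the IP noradrenergic and the input total hindbrain. Infusion was with hTyr, by its usual meaning human tyrosinase, the enzyme that makes melanin pigment, in 5 animals, or with the fluorescent protein EYFP as control in 6 animals. An animal has one number in both of its libraries' titles, and is called here by its IP library: IP_501, IP_502, IP_508, IP_509 and IP_510 in hTyr, and IP_504, IP_505, IP_506, IP_507, IP_511 and IP_512 in EYFP. The input libraries are titled Pre_501 and so on. Age, the infusion vehicle and the time after infusion are not given in the sources used here. The 4 groups are thus EYFP input, EYFP IP, hTyr input and hTyr IP. Nothing further is stated on how independent the animals were, so p-values measure the spread between these samples, which may be technical in part.

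Depth ran from 12654489 to 25100142 reads per library, and the members were deeply covered. The fewest reads for a member in any library were 3074 (Hk1, hTyr IP) and the most were 60184 (Aldoa, hTyr IP), so counting error was small beside the spread between animals. Values are log2 CPM, that is reads scaled to library size by the authors, on a log2 scale. Defining markers of noradrenergic neurons were present in the IP: Dbh, which makes noradrenaline, averaged 7.26 in EYFP IP against 3.24 in EYFP input, and was 4.30 higher in hTyr IP than in hTyr input. The IP was not free of other cells. Oligodendrocyte markers (10 of 10 in the table) summed to between 6060 and 8403 CPM in the IP libraries, against 6441 to 9070 in input, and 0 of them was at 0 in every library of a group.

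In GENCODE M21, which uses the same genome build as the deposited table (GRCm38, or mm10), all members are annotated as protein coding genes. Hk1, hexokinase, which traps glucose in the cell as glucose 6-phosphate, lies at chr10:62268855-62379908. Gpi1, which converts that product to fructose 6-phosphate, lies at chr7:34201330-34230336. Pfkm, the muscle form of phosphofructokinase, the committed and most regulated step, lies at chr15:98092589-98132451. Aldoa, aldolase A, which cleaves the hexose into a pair of trioses, lies at chr7:126795234-126800751. Tpi1, which interconverts those trioses, lies at chr6:124810586-124814296. Gapdh, which oxidizes the triose and makes NADH, lies at chr6:125161715-125166467. Pgk1, which makes the first ATP, lies at chrX:106187100-106203699. Pgam1, phosphoglycerate mutase, lies at chr19:41911923-41918660. Eno2, the enolase form known as neuron-specific enolase, lies at chr6:124760053-124769673. Pkm, pyruvate kinase, which makes the final ATP and pyruvate, lies at chr9:59656368-59679375. Tpi1, Gapdh and Eno2 thus share chromosome 6. Exons of Pfkm, Aldoa and Tpi1 overlap those of Senp1, Fam57b and Spsb2 on the opposite strand, and whether the counting used strand is not given in the sources used here.

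The glycolytic genes are known as targets of hypoxia-inducible factor, and ACGTG is a common form of the core of its response element. Other forms of the core were not searched, so a window without ACGTG may still hold one. RefSeq start sites (GRCm38.p6) were matched for 10 of 10 members, with 17 windows of the 250 bases before a start. ACGTG, searched on both strands, was in 7 of the 17 windows, those of 5 members (Pfkm, Aldoa, Pgk1, Pgam1 and Pkm). It was in 16.6% of all RefSeq windows of that length and in 21.3% of the windows of genes in the table. The Aldoa windows with the motif overlap and hold the same site. Some members also have several starts, so the 17 windows are not independent. The E-box CACGTG, which contains ACGTG, was in 1 window (Pfkm). The GC box GGGCGG was in 6 of the 17, against 57.5% of windows of genes in the table, and TATAAA was in 1 (Eno2). Windows of 3 members with a single start are printed because they show that genes of the pathway differ in this motif. They were chosen after the values were seen: Pgk1 had the largest IP to input difference, Pgam1 one of the smaller ones, and Eno2 holds no ACGTG. They are chrX:106186850-106187099 (plus strand), chr19:41911621-41911870 (plus strand) and chr6:124769674-124769923 (minus strand), each 5′ to 3′, with ACGTG or its reverse complement CACGT in capitals. A match is a description of the letters only.
Pgk1: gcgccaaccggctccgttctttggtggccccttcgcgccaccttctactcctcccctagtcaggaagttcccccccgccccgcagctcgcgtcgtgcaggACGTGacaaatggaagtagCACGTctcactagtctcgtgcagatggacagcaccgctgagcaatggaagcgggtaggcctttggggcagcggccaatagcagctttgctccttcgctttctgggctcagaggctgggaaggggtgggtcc
Pgam1: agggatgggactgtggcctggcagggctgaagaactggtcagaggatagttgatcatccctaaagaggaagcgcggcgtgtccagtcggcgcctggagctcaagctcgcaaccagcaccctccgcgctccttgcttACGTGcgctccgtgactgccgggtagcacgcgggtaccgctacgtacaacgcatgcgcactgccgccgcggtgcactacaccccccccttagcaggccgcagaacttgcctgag
Eno2: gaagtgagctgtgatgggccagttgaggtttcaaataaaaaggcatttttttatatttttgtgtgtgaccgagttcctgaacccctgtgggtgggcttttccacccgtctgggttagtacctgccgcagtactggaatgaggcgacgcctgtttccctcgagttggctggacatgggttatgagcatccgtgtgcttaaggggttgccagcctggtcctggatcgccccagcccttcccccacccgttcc

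All 10 members were higher in the IP than in the input, in EYFP and in hTyr animals alike. In EYFP animals the log2 changes ran from 0.35 for Tpi1 to 0.81 for Pgk1, and 10 of 10 passed limma's test at an adjusted p of 0.05. In that comparison 28.5% of all genes tested passed as higher and 28.1% as lower, and the median change was 0.61 over the members against -0.03 over all genes. In hTyr animals 10 of 10 passed as well, with changes from 0.35 for Tpi1 to 0.90 for Pgk1, where 27.4% of all genes passed as higher and 27.0% as lower. The median there was 0.65 over the members and -0.04 over all genes. Within animals, each of the members was higher in the IP than in the input of the same animal in 11 of 11 animals, a pattern shown by 22.8% of the genes of the table. In bulk samples such as these, fewer cells of a type and less RNA per cell cannot be told apart.

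**Figure D1:**
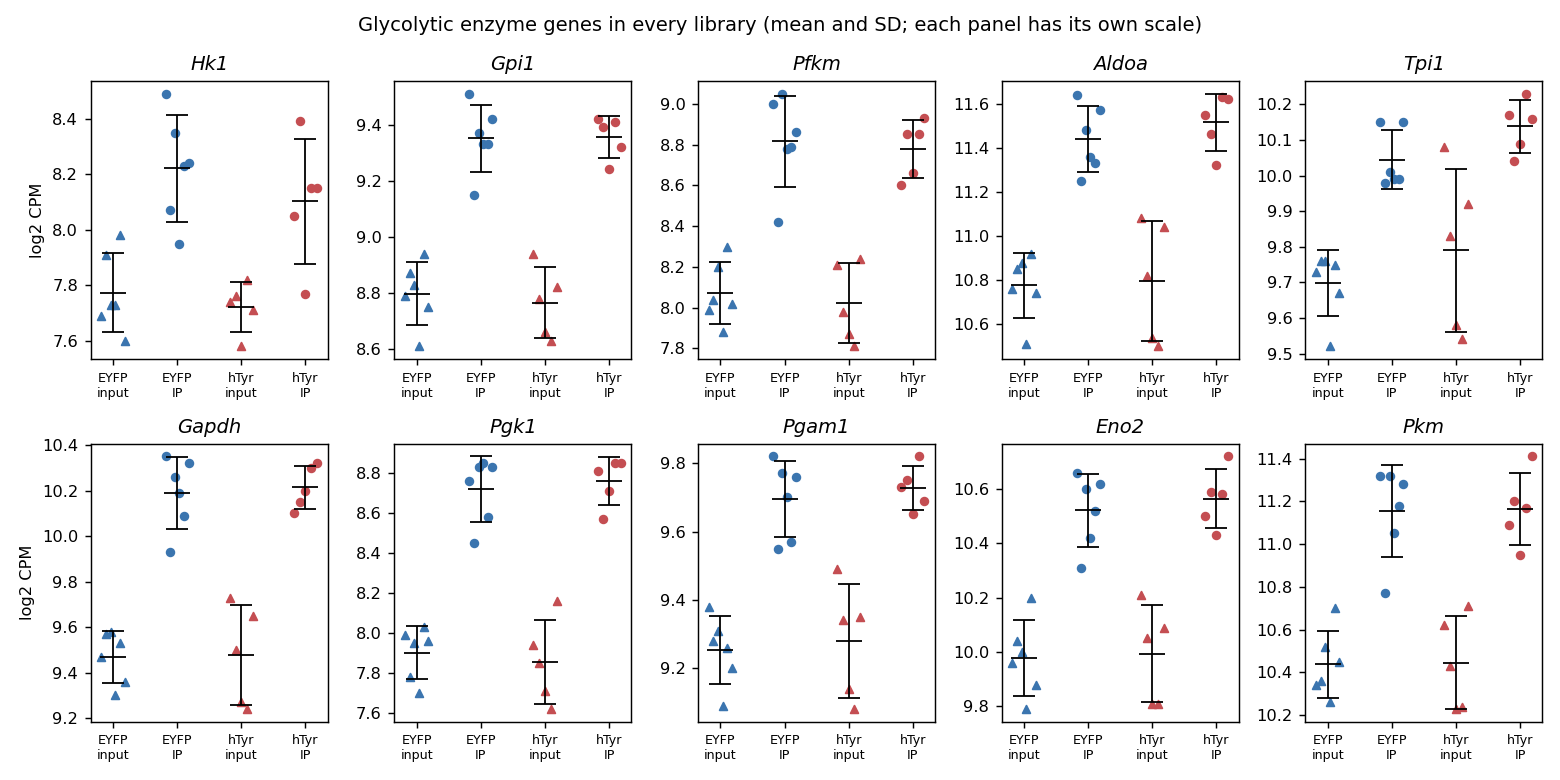
Log2 CPM of each of the 10 genes in every library, in 1 panel per gene with its own vertical scale; triangles are input, circles are IP, blue is EYFP (n = 6), red is hTyr (n = 5), and black bars are mean and SD. In 8 of the 10 panels both IP groups sit wholly above the input of the same infusion; Hk1 overlaps in both infusions and Tpi1 in hTyr.

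At the entry of the pathway, Hk1 had the weakest separation. In EYFP input it ran from 7.60 to 7.98 log2 CPM (median 7.73), and in EYFP IP from 7.95 to 8.49 (median 8.24). In hTyr input its values were 7.74, 7.76, 7.58, 7.82 and 7.71 in Pre_501, Pre_502, Pre_508, Pre_509 and Pre_510, and in hTyr IP, in the same order of animals, they were 8.05, 8.39, 7.77, 8.15 and 8.15. IP and input overlapped in both infusions, through the low IP libraries IP_507 and IP_508. The change was 0.45 in EYFP (SE 0.09, limma adjusted p = 0.000575) and 0.38 in hTyr (SE 0.10, limma adjusted p = 0.00387), so a fold of 1.36 and of 1.30.

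Gpi1 showed no such overlap. It ran from 8.61 to 8.94 in EYFP input (median 8.81) and from 9.15 to 9.51 in EYFP IP (median 9.35). In hTyr input the animals gave 8.94, 8.78, 8.66, 8.63 and 8.82, and in hTyr IP 9.42, 9.39, 9.24, 9.41 and 9.32 (here and for the genes that follow, in the order of animals given for Hk1). The lowest IP library was above the highest input library in each infusion, and the log2 change was 0.55 in EYFP and 0.59 in hTyr. Pfkm had one of the larger differences. Its EYFP libraries ran from 7.88 to 8.30 in input (median 8.03) and from 8.42 to 9.05 in IP (median 8.82). Its hTyr input values were 8.21, 7.98, 7.87, 7.81 and 8.24, and its hTyr IP values were 8.60, 8.85, 8.66, 8.85 and 8.93. IP_505 was the low library in EYFP IP, yet it was still above all EYFP input libraries. The fold was 1.68 in EYFP (log2 change 0.75, SE 0.10) and 1.69 in hTyr (0.76, SE 0.10).

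At the splitting of the hexose, Aldoa and Tpi1 behaved differently in size. Aldoa ran from 10.51 to 10.92 in EYFP input (median 10.80) and from 11.25 to 11.64 in EYFP IP (median 11.42). In hTyr input its values were 11.08, 10.82, 10.54, 10.50 and 11.04, and in hTyr IP 11.55, 11.46, 11.32, 11.63 and 11.62. IP and input did not overlap in either infusion, although the hTyr input libraries Pre_501 and Pre_510 came closest to the lowest IP library. The fold was 1.58 in EYFP and 1.64 in hTyr. Tpi1 changed least of all members. It ran from 9.52 to 9.76 in EYFP input (median 9.74) and from 9.98 to 10.15 in EYFP IP (mean 10.04). In hTyr input it was at 10.08, 9.83, 9.58, 9.54 and 9.92, and in hTyr IP at 10.17, 10.04, 10.09, 10.23 and 10.16. Pre_501 was above IP_502, so the hTyr groups overlapped. The change was 0.35 in EYFP (SE 0.07, limma adjusted p = 0.000441) and 0.35 in hTyr (SE 0.10, limma adjusted p = 0.00865). In hTyr animals it no longer passed without animal IP_509 (0.27, adjusted p = 0.0592) or after quantile normalization (0.24, adjusted p = 0.0512).

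In the pay-off phase, Gapdh and Pgk1 had larger differences than Pgam1. Gapdh ran from 9.30 to 9.58 in EYFP input (median 9.50) and from 9.93 to 10.35 in EYFP IP (median 10.23). Its hTyr input values were 9.73, 9.50, 9.27, 9.24 and 9.65, and its hTyr IP values were 10.10, 10.15, 10.20, 10.30 and 10.32. The groups did not overlap, and the fold was 1.65 in EYFP and 1.67 in hTyr. Gapdh is a common reference gene, and its reads are shared with near-identical copies. Of the 1371 stretches of 50 bases in its longest transcript, 70.4% recur in other genes of the table, 903 of them in Gm12070. Gm12070 held 79.6% as many reads as Gapdh in hTyr input and 81.5% in hTyr IP, against 78.8% and 73.4% in EYFP. How reads were divided between these genes is uncertain. Summed over Gapdh and 3 copies (Gm12070, Gapdh-ps15 and Gm5069), the IP was higher than the input by 0.70 ± 0.23 on the log2 scale (SD, n = 11 animals; range 0.31 to 1.05).

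Pgk1 had the largest difference of the members. It ran from 7.70 to 8.03 in EYFP input (median 7.96) and from 8.45 to 8.85 in EYFP IP (median 8.79). In hTyr input it was at 7.94, 7.85, 7.71, 7.62 and 8.16, and in hTyr IP at 8.81, 8.57, 8.71, 8.85 and 8.85. No IP library came down to the input libraries of its infusion. The change was 0.81 in EYFP (SE 0.08, limma adjusted p = 1.66e-06), a fold of 1.76, and 0.90 in hTyr (SE 0.10), a fold of 1.87. Pgam1 ran from 9.09 to 9.38 in EYFP input (median 9.27) and from 9.55 to 9.82 in EYFP IP (median 9.73). In hTyr input it was at 9.49, 9.34, 9.14, 9.08 and 9.35, and in hTyr IP at 9.73, 9.75, 9.65, 9.82 and 9.69. The groups were apart but close, and the fold was 1.36 in each infusion. Other annotated genes hold 68.0% of the 50-base stretches of Pgk1 and 41.5% of those of Pgam1, and 0 of those genes are in the table. Since the table was filtered, it does not show whether reads of Pgk1 and Pgam1 were lost to those genes.

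The last steps are those of Eno2 and Pkm. Eno2 ran from 9.79 to 10.20 in EYFP input (median 9.98) and from 10.31 to 10.66 in EYFP IP (median 10.56). In hTyr input it was at 10.21, 10.05, 9.81, 9.81 and 10.09, and in hTyr IP at 10.50, 10.59, 10.43, 10.58 and 10.72. IP lay above input without overlap, and the fold was 1.46 in EYFP and 1.48 in hTyr. Pkm ran from 10.26 to 10.70 in EYFP input (median 10.41) and from 10.77 to 11.32 in EYFP IP (median 11.23). In hTyr input it was at 10.62, 10.43, 10.23, 10.24 and 10.71, and in hTyr IP at 11.09, 11.20, 10.95, 11.17 and 11.41. Its groups did not overlap either, and the fold was 1.64 in EYFP and 1.65 in hTyr. The table gives 1 value per gene, so the M1 and M2 splice forms of Pkm, which differ in regulation, cannot be told apart.

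Groups without overlap were thus found for 9 of 10 members in EYFP animals, where 16.7% of all genes had the IP wholly above the input, and for 8 of 10 in hTyr animals, where 20.7% did. Among all genes ranked by their change, the members stood between the 78.4th (Tpi1) and the 94.3rd percentile (Pgk1) in EYFP, so none was among the genes with the largest differences. Noradrenergic markers differed more. Of 13 in the table, 11 were higher in EYFP IP and 12 in hTyr IP, with a median change of 1.92 and 2.49.

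Counts for markers of glia and vessels are given against the shares of all genes named above (28.5% higher and 28.1% lower in EYFP, 27.4% and 27.0% in hTyr). Of 10 oligodendrocyte markers, 3 were higher and 4 lower in EYFP IP (median change 0.05, Mbp of myelin at -0.55), and 4 and 4 in hTyr IP (median -0.01). Of 10 astrocyte markers, 3 were higher and 1 lower in EYFP (median 0.13), and 4 and 2 in hTyr (median 0.23). Changes in EYFP animals ran from -0.63 to 0.58 over the oligodendrocyte markers and from -0.39 to 0.65 over the astrocyte markers. The summed level of the astrocyte markers ran from 1652 to 1994 CPM in EYFP input and from 1586 to 2277 in EYFP IP. Of 10 microglial markers, 0 were higher and 1 was lower in EYFP (median -0.01), and 2 and 1 in hTyr (median -0.13). Of 5 endothelial markers, 0 passed in EYFP (median 0.19) and 2 were higher in hTyr (median 0.40). Markers of other neurons were mixed within each type in EYFP animals. Slc17a6, a glutamate transporter of excitatory neurons, changed by 1.08 past the threshold, while Slc17a7, the other of that list, was at -0.43 and did not pass. Of 3 serotonergic markers, Tph2 (1.23) and Slc6a4 (0.41) were higher and Fev (-0.55, limma adjusted p = 0.037) was lower. Of 3 cholinergic markers, Slc5a7 (1.27) and Chat (0.55) were higher and the third did not pass. Of 4 GABAergic or glycinergic markers 3 were higher, led by Gad1, which makes GABA, at 0.84. Of 4 markers of cerebellar granule or Purkinje cells, 1 (Calb1) was higher and 0 lower, with a median of 0.14. Some of these calls differed in hTyr animals. There 1 of the cerebellar markers was higher and 2 lower (median 0.03), and 2 of the GABAergic or glycinergic markers were higher. Fev did not pass in hTyr animals (-0.257, limma adjusted p = 0.23). The part of these cells in the members' difference was not tested.

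**Figure D2:**
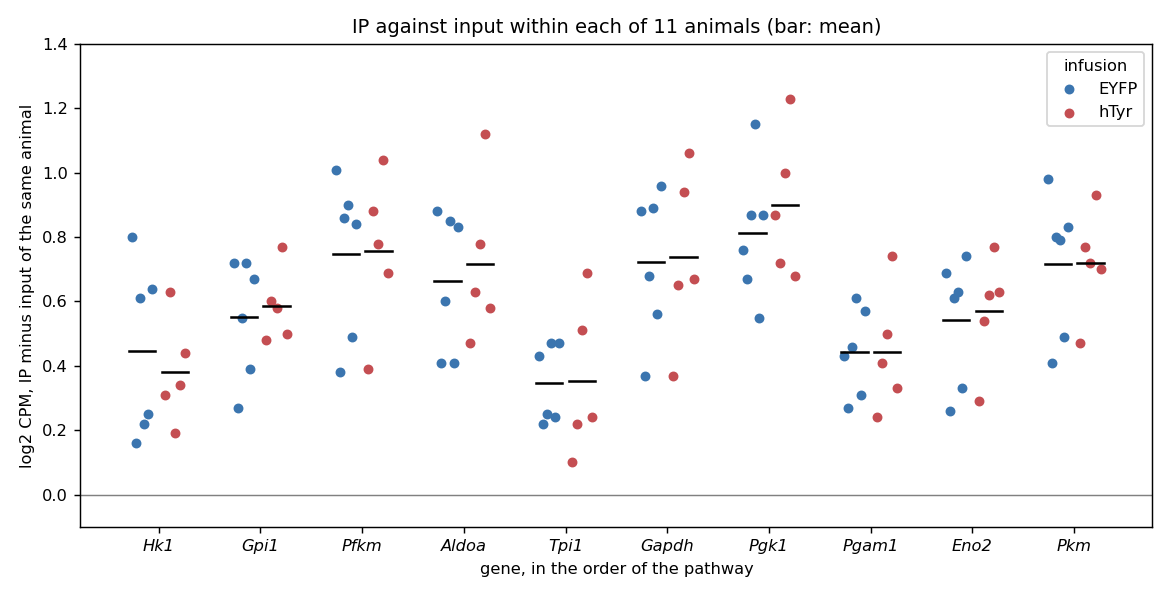
IP minus input of the same animal in log2 CPM for each gene, in the order of the pathway; points are animals (blue EYFP, n = 6; red hTyr, n = 5) and bars are means. All 110 points lie above 0, from 0.10 (Tpi1, IP_501) to 1.23 (Pgk1, IP_509), and the infusions overlap for every gene.

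Within the animals the members moved together. Animal IP_505 had the smallest IP to input difference among EYFP animals for 9 of 10 members, and animal IP_501 among hTyr animals for 8 of 10. Averaged over the members, the difference was 0.34 in animal IP_505 and 0.40 in animals IP_511 and IP_501, and 0.87 in animal IP_509, which had the largest hTyr difference for 9 of 10. The enrichment of noradrenergic RNA is given beside these values. Dbh was higher in the IP than in the input by 3.19 to 5.27 over the 11 animals. Its difference was 4.20 in animal IP_505, 3.66 in IP_511 and 5.27 in IP_501, where the members' difference was small, and 3.80 in IP_509 and 4.87 in IP_504 (members 0.76), where it was large, so the order of the animals was not the same for Dbh and for the members. Astrocyte markers averaged -0.03 and -0.02 (IP minus input) in animals IP_505 and IP_511, against 0.15 to 0.27 in the others. Among those others was IP_501 at 0.15, where the members' difference was small too. Their part in the spread was not tested.

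Single libraries set the extremes. In EYFP IP, IP_505 was lowest for 9 of 10 members and IP_504 highest for 7. In EYFP input, Pre_507 was lowest for 9. In that library the 10 most abundant genes took 10.3% of the reads, the highest share of the 22 libraries. In hTyr input, Pre_509 was lowest for 8 and Pre_501 highest for 6. Summed over the members, the level was 6521 to 8303 CPM in EYFP input (median 7533) and 9718 to 12736 in EYFP IP (median 11547). It was 6489 to 8805 CPM in hTyr input (median 7669) and 10621 to 12676 in hTyr IP (median 11607). The sums did not overlap between IP and input. Leaving out any one EYFP animal kept 10 of 10 members past the threshold, and the change of a member then lay between 0.32 and 0.86.

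As a description of co-variation, the mean of the members over the 22 libraries was most like Eno1 (r = 0.993), a further enolase, followed by Tubb2a (0.993), Snap47 (0.990), Tubb4b (0.989) and Tubb2b (0.987). Tubb2a, Tubb4b and Tubb2b are beta-tubulins. After the 4 group means were taken away, so that differences between IP and input or between infusions no longer counted, Eno1 (0.959), Got1 (0.957), Tubb2a (0.956), Snap47 (0.952) and Gm12070 (0.950) were most alike. Got1 is the cytosolic aspartate aminotransferase, and Gm12070 is the Gapdh copy named above. Among the members, each against the mean of the others on the same scale, Aldoa was closest (r = 0.96) and Hk1 farthest (0.44). The libraries share animals, scaling and depth.

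Compared per kilobase of merged exon, the steps of the pathway differed widely in RNA level. In EYFP IP, Aldoa was highest with 1530 ± 160.7 CPM per kilobase (SD, n = 6) and ranked number 6 of 12106 genes with a length. Pkm followed with 885.2 ± 122.6 and Gapdh with 785.0 ± 81.8. The ranges of Pkm and Gapdh overlapped, while Aldoa stood apart. Tpi1 (599.2 ± 34.8), Eno2 (528.2 ± 48.0) and Pgam1 (468.0 ± 35.6) came next, with each overlapping its neighbour. Pgk1 (231.5 ± 25.1) and Gpi1 (226.9 ± 18.5) overlapped as well. Pfkm (151.8 ± 22.2) and Hk1 (61.9 ± 8.20), both kinases of the upper pathway, were lowest, each apart from the gene before it. In EYFP input the order was the same apart from Gpi1 (154.6 ± 12.1), which was above Pgk1 (131.5 ± 11.6) with overlapping ranges, and Aldoa (965.4 ± 94.9) and Hk1 (45.3 ± 4.56) were again at the ends. The hTyr groups had Aldoa first, Pkm second, and Pfkm and Hk1 last too. The place of Gapdh beside Aldoa and Pkm depends on how reads were divided between Gapdh and its copy Gm12070. In EYFP IP, Gm12070 averaged 862.0 CPM and Gapdh 1174. Pgk1, Pgam1 and Pkm also share 50-base stretches with other annotated genes, so their levels may be affected to an unknown degree.

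The infusion did not separate the members. In the IP, 0 of 10 passed limma's test between hTyr and EYFP, where 7 of the 12596 genes did (0.0556%), and 0 of 10 were below an unadjusted p of 0.05, where 6.19% of all genes were. The estimates (hTyr minus EYFP) ran from -0.12 for Hk1 (95% confidence interval -0.35 to 0.12) to 0.10 for Tpi1 (-0.07 to 0.26). For Gapdh the estimate was 0.03 (-0.17 to 0.22), for Pgk1 0.04 (-0.15 to 0.23), for Eno2 0.04 (-0.16 to 0.23) and for Pkm 0.01 (-0.24 to 0.26). As folds, the lowest bound of any member was 0.78 (Hk1) and the highest 1.22 (Aldoa), and the widest interval on the log2 scale was that of Pkm (folds of 0.85 to 1.19). Differences inside these intervals are not excluded, and the intervals set no limit of detection. Other RNA was uneven between the infusion groups. Over 4 Y-linked genes the sum ran from 0.00 to 124.0 CPM in EYFP IP (median 41.43) and from 0.00 to 142.1 in hTyr IP (median 0.00). The 4 markers of cerebellar granule or Purkinje cells had a median change of -1.49 in IP and -1.30 in input, and 0 passed limma's test. The part of sex or tissue content in the members' estimates was not tested.

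**Figure D3:**
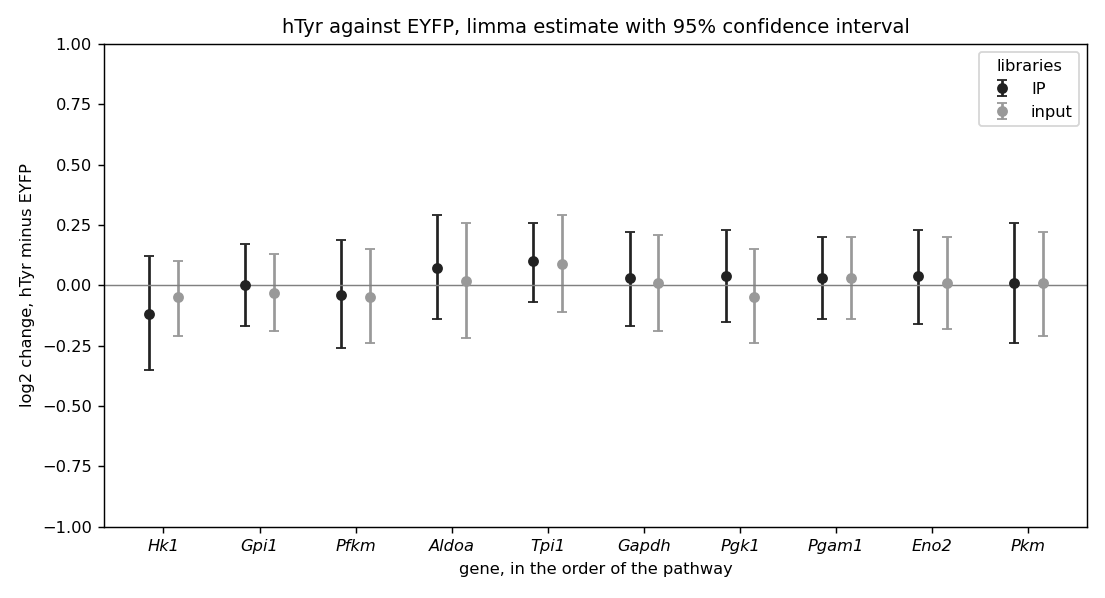
Log2 change, hTyr minus EYFP, for each gene in IP (black) and input (grey), with limma's estimate as a point and its 95% confidence interval as a bar; 11 libraries each. All 20 intervals include 0, and the points lie between -0.12 and 0.10.

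In the input, 0 of 10 members passed, with 1 gene of 12596 doing so (0.00794%), and 0 of 10 were below an unadjusted p of 0.05 (3.03% of all genes). Estimates ran from -0.05 for Hk1 (-0.21 to 0.10) to 0.09 for Tpi1 (-0.11 to 0.29). The spread of Aldoa was wider in hTyr input (SD 0.27, n = 5) than in EYFP input (SD 0.15, n = 6), with Pre_501 and Pre_510 high and Pre_508 and Pre_509 low. Across genes, the input change between infusions correlated with GC content (rho = 0.42 over 12106 genes) and with length (rho = -0.41). Of the members, 9 of 10 lie above the median GC content and 1 of 10 above the median length of these genes. With both trends removed, 0 of 10 passed, and Gapdh moved from 0.01 to -0.04. In the test of whether the infusion's effect differed between IP and input, 0 of 10 passed (interaction in limma, 0.00794% of all genes passed), with estimates from -0.07 for Hk1 (-0.35 to 0.22) to 0.09 for Pgk1 (-0.18 to 0.36). With the replicate block, 0 of 10 passed and 0.0397% of all genes did.

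Some steps have a further isozyme in the table, and the balance of a pair within a library does not depend on scaling between libraries. Of 10 pairs written, 7 had both genes in the table, and 5 differed between IP and input of the same animal (exact two-sided sign-flip test over 11 animals, adjusted over 7 pairs, smallest possible p 0.000977). The clearest was the enolase pair. Eno1, the widely expressed enolase, went from 8.82 ± 0.17 in EYFP input to 9.76 ± 0.21 in EYFP IP (SD, n = 6), a larger step than that of Eno2. Over the 11 animals the log2 ratio of Eno2 to Eno1 was 1.16 ± 0.09 in input, and 0.77 ± 0.08 in the IP (SD). It was lower in the IP in 11 of 11 animals, by 0.18 to 0.59, with a mean of -0.39 (exact sign-flip adjusted p = 0.00684). Eno2 kept the higher level per kilobase in both, 2.04 times that of Eno1 in input and 1.56 times in IP. Eno1 shares 70.5% of its 50-base stretches with Eno1b, an intronless copy, so the division of reads between them is uncertain, and Eno1b itself was 0.74 higher in EYFP IP (SE 0.13, limma adjusted p = 0.000165).

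The aldolase and phosphofructokinase pairs changed little. Aldoa against Aldoc, the form best known from astrocytes and Purkinje cells, was 0.07 higher in IP than in input (higher in 10 of 11 animals, exact sign-flip adjusted p = 0.0256). Pfkm against Pfkl, the liver form, was 0.09 higher (9 of 11 animals, exact sign-flip adjusted p = 0.0342), and Pfkm against Pfkp, the platelet form, was at -0.06 (lower in 8 of 11, adjusted p = 0.117, exact). The calls for Aldoa against Aldoc and Pfkm against Pfkl were lost without animal IP_501, IP_510 or IP_512 (exact adjusted p between 0.0513 and 0.0684). Pfkm against Pfkl was also lost without IP_502, IP_507 or IP_508, and Aldoa against Aldoc moved to 0.30 after quantile normalization. Downstream, Ldhb against Ldha, the subunits of lactate dehydrogenase, was 0.17 lower in the IP on average (-0.17, lower in 10 of 11, exact adjusted p = 0.00684). Upstream, Slc2a3 against Slc2a1, the glucose transporters GLUT3 of neurons and GLUT1 of endothelium and astrocytes, changed by -0.36 (lower in 10 of 11, exact adjusted p = 0.00684). Slc16a7 against Slc16a1, lactate and pyruvate transporters, was at -0.24 (lower in 7 of 11, exact adjusted p = 0.0524). It passed with a pseudocount of 5 CPM (-0.30, exact adjusted p = 0.0114) and without animal IP_502, IP_505 or IP_506 (exact adjusted p = 0.0355, 0.0319 and 0.0433). Between hTyr and EYFP in the IP, 0 of 7 ratios differed (exact two-sided permutation of the infusion labels, lowest adjusted p 0.879, 0 below an unadjusted p of 0.05).

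The genes around the pathway were taken from lists chosen by function. The counts of this and the following paragraphs stand beside 28.5% of all genes higher and 28.1% lower in EYFP IP. In hTyr IP those shares were 27.4% and 27.0%. Of 12 other glycolytic isozymes in the table, 6 were higher and 2 lower in EYFP IP, with a median of 0.35. Among those higher were Eno1 (0.94), Pfkp (0.81) and Eno1b (0.74). Gapdhs, the sperm form of Gapdh, was lower (-0.79, adjusted p = 8.00e-05 in limma). In hTyr IP the counts were again 6 and 2. Of 9 transport genes 5 were higher and 0 lower in EYFP (5 and 1 in hTyr). Slc2a13, a proton myo-inositol cotransporter, led with 0.82, while Slc2a1 was at 0.40 and Slc16a1 at 0.51. Slc2a3 did not pass in either infusion (0.09 and 0.03).

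Genes of the fates of pyruvate were mostly higher as well. Of 3 lactate dehydrogenase genes, 3 passed as higher in each infusion, and Ldha (1.01 in EYFP, 1.13 in hTyr) and Ldhb (0.89 in both) were above every member's change in EYFP. Of 7 genes of pyruvate entry, 5 were higher in each infusion (0 lower in EYFP, 1 in hTyr), with a median of 0.49 in EYFP and 0.60 in hTyr. Dld, the shared dehydrogenase subunit of the pyruvate and oxoglutarate complexes, led with 1.39 in EYFP. Mpc1, a subunit of the mitochondrial pyruvate carrier, was the one lower in hTyr IP (-0.47, limma adjusted p = 0.0011). Of 16 tricarboxylic acid cycle genes, 13 were higher and 0 lower in each infusion, with a median of 0.45 in EYFP and 0.47 in hTyr. The largest were Sucla2 (1.32), Fh1 (1.13), Suclg1 (0.70) and Mdh2 (0.65). The other 3 genes of the cycle did not pass in either infusion, and no test set one list against another.

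**Figure D4:**
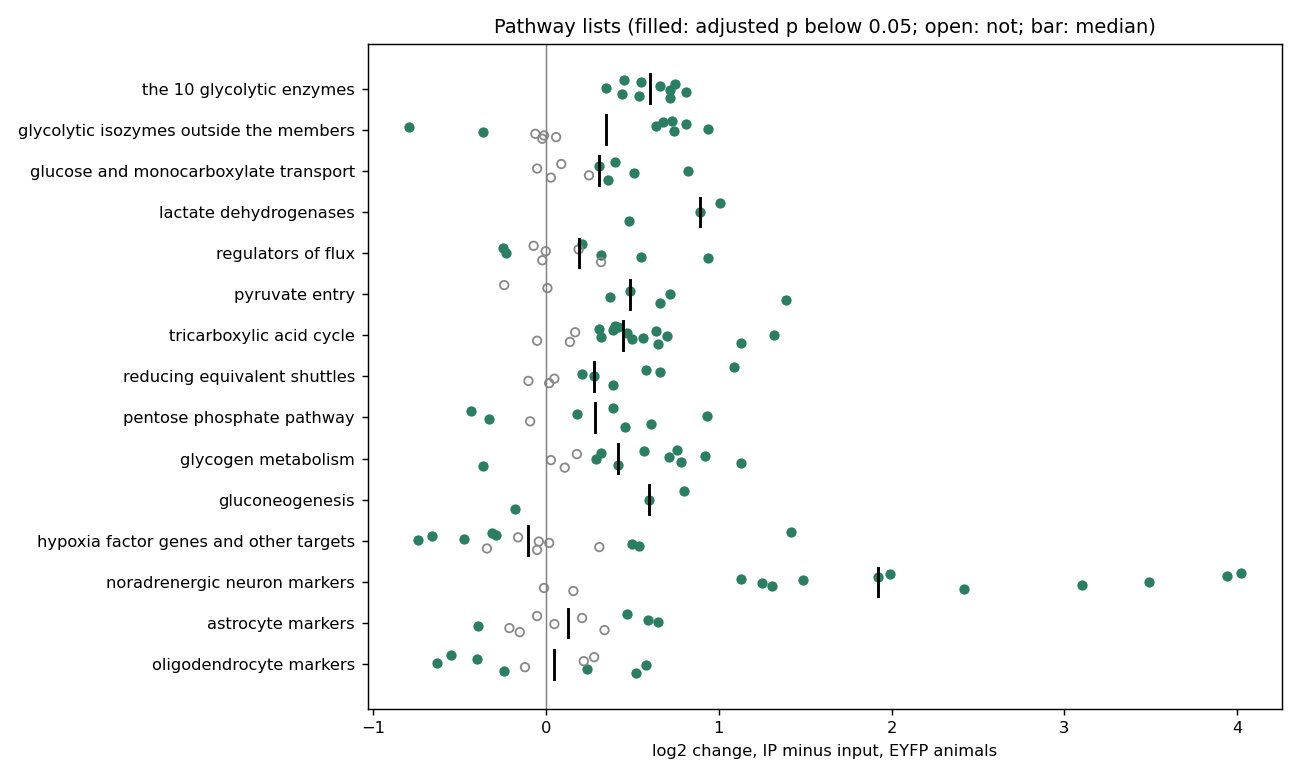
Log2 change, IP minus input in EYFP animals (12 libraries), for the genes of each list; filled points passed an adjusted p of 0.05, open points did not, and bars are medians. The members lie between 0.35 and 0.81, below most noradrenergic markers (median 1.92) and to the right of the astrocyte (0.13) and oligodendrocyte (0.05) medians. The highest astrocyte marker (0.65) and the highest oligodendrocyte marker (0.58) lie within the members' range.

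Side branches were mixed. Of 13 genes of glycogen metabolism 9 were higher and 1 lower in EYFP, led by Pgm2l1 (1.13) and Gbe1 (0.92), the branching enzyme. Of 8 pentose phosphate genes 5 were higher and 2 lower, with Pgd at 0.93 and H6pd at -0.43. Of 9 genes of the shuttles that carry reducing equivalents into mitochondria 6 were higher and 0 lower, led by Mdh1 at 1.09. Of 3 gluconeogenesis genes, Pcx (0.80) and Pck2 (0.60) were higher and G6pc3 (-0.18) lower. Of 11 regulators of flux 4 were higher and 2 lower, which is near the shares of all genes and no result about the list. Pdp1, the phosphatase that activates pyruvate dehydrogenase, led with 0.94, and Pfkfb3, which makes the activator of phosphofructokinase, did not pass (-0.07). All counts of this paragraph so far are those of EYFP animals. In hTyr animals, the genes higher and lower were 9 and 0 for glycogen metabolism and 4 and 0 for the pentose phosphate pathway. They were 5 and 0 for the shuttles, 2 and 1 for gluconeogenesis, and 3 and 1 for the regulators of flux.

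Of 14 genes of hypoxia-inducible factor and its other targets in the table, 3 were higher and 5 lower in EYFP IP (median -0.11), beside 28.5% and 28.1% of all genes. In hTyr IP 3 were higher and 6 lower (median -0.21), beside 27.4% and 27.0%. Counts of this size are near those shares and are no result about the list. Hif1a itself was 1.42 higher in EYFP IP, from 5.49 ± 0.18 to 6.92 ± 0.38 (SD, n = 6), without overlap. Vegfa, a growth factor for vessels, was lower (-0.74), as was Egln1 (-0.66), the prolyl hydroxylase that marks the factor for degradation. Between hTyr and EYFP, 0 genes of these 11 lists around glycolysis passed limma's test, in IP or in input.

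GC content, more than length, moved with the IP to input change. Across 12106 genes the IP to input change correlated with GC content (rho = -0.34 in EYFP and -0.44 in hTyr) and little with length (0.04 and 0.10). The members are short, with a median of 2212 bases against 3455.5 over these genes, and GC rich, with 54.7% against 50.4%. With both trends removed from each library, 10 of 10 remained past the threshold in each infusion, and the median over the members was 0.67 in EYFP and 0.76 in hTyr.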

How the data were processed

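RNA libraries of the 22 samples were made by Novogene, per the labels. The submitters' processing notes name STAR, featureCounts and build mm10. The authors deposited 1 table of log2 values for 12596 genes, named as filtered and normalized. Filter and normalization method are not given in the sources used here. The deposited log2 values are CPM with a small pseudocount: 100% of them came out as whole reads (tolerance 0.05), which gave each library's depth. Reads carry no molecular identifiers.

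Tests were run with limma 3.58.1 in R 4.3.3 (lmFit, eBayes with a mean-variance trend) on the whole table, with Benjamini-Hochberg adjustment over all genes. limma gave every adjusted p-value of a gene, and the threshold was 0.05. Each fit held only the groups compared, except the interaction (4 groups). The main fits between IP and input, and the interaction, left out the pairing by animal. The replicate block, an alternative, fits a term for each animal. Isozyme pairs were compared by exact permutation. The 10 members were named whatever their values, and for each list up to 4 genes with the largest absolute change among those passing. Other genes (such as Slc2a3, Pfkfb3 and Slc2a1) were named as parts of a pair or after their values were seen. The members and lists were chosen with earlier results of these data known. IP and input carry the same number in their titles, and deviations from group means correlated within numbers (mean r 0.448, range 0.279 to 0.626, n = 11 pairs) and not between them (-0.043), so the numbers pair the libraries. Lengths, GC content and coordinates came from GENCODE M21, promoters from RefSeq. Scripts were tested on simulated data. The value of 1 gene of the lists is not reported here.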

Additional observations from a re-analysis of the deposited data

Results flagged for a closer look

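Among the members and the genes of the isozyme pairs, 80 groups of libraries were searched for a single library far from the rest, of which chance alone gives about 4.0, and 2 were found. Tpi1 in EYFP input was at 9.52 log2 CPM in Pre_507, with the next library at 9.67, a gap of 0.635 of the group's range. The same library was lowest for 9 of 10 members. Slc2a1 in EYFP IP was at 5.30 in IP_505, with the next at 5.82, a gap of 0.707 of the range, and this library too was lowest for 9 of 10 members.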

How the results depend on the processing

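With each of 10 alternatives and without each animal, 10 of 10 members stayed past limma's threshold between IP and input in EYFP animals. In hTyr animals 9 to 10 did, with 9 after quantile normalization and without animal IP_509, where Tpi1 was lost. The replicate block left 10, 10 and 0 members past the threshold in EYFP, in hTyr and in the interaction, so it changed no member's call. Taking away the trend on GC content and length, alone or with the block, was chosen after seeing the data and left the same counts. The number of genes called between hTyr and EYFP in IP, 7 here, was 14 with one spread shared over all libraries and 5 without the trend, and 3 to 11 without single animals; in input, 1 here, it was 0 with voom and 0 to 2 without single animals. In the interaction, 1 here, it was 6 with that trend taken away and the block, 5 with the block and 0 to 5 without single animals. Of the isozyme pairs, 5 passed between IP and input, 3 passed with no replicate block (Aldoa/Aldoc adjusted p = 0.274, Pfkm/Pfkl 0.193, exact permutation), and 3 to 6 passed without single animals, with 3 without IP_501, IP_510 or IP_512. The cause was not tested.

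Members' hTyr minus EYFP estimates near 0, 0 of them called, changed sign with some settings. In IP, quantile normalization gave Gapdh 0.00 and Pkm 0.00 (just below 0), and sample quality weights gave Gpi1 -0.03, Gapdh -0.02, Pgk1 -0.02 and Pkm -0.05. In input, quantile normalization gave Aldoa 0.00, Gapdh -0.02, Pgam1 -0.01, Eno2 -0.03 and Pkm -0.01, weights gave Aldoa -0.03, Gapdh -0.04, Eno2 -0.01 and Pkm -0.05, and taking away the GC and length trend gave Aldoa -0.02, Gapdh -0.04, Pgam1 0.00, Eno2 0.00 and Pkm -0.02. In the interaction, quantile normalization gave Tpi1 -0.02, median centring gave Pfkm -0.01, Tpi1 -0.01, Gapdh 0.00, Pgam1 -0.02 and Pkm -0.01, voom gave Tpi1 0.00, Pgam1 -0.01 and Pkm -0.01, and weights gave Pgam1 0.00. The Pfkm/Pfkp ratio in IP went to 0.01 with quantile normalization.

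Without single animals the IP estimates ranged over -0.04 to 0.03 (Gpi1), -0.12 to 0.01 (Pfkm), -0.03 to 0.06 (Gapdh), -0.01 to 0.09 (Pgk1), 0.00 to 0.07 (Eno2) and -0.07 to 0.06 (Pkm). In input they ranged over -0.07 to 0.00 (Gpi1), -0.10 to 0.00 (Pfkm), -0.05 to 0.10 (Aldoa), -0.05 to 0.07 (Gapdh), -0.12 to 0.01 (Pgk1), -0.02 to 0.08 (Pgam1), -0.04 to 0.06 (Eno2) and -0.06 to 0.06 (Pkm). In the interaction they ranged over -0.13 to 0.00 (Hk1), -0.02 to 0.07 (Gpi1), -0.06 to 0.10 (Pfkm), -0.05 to 0.11 (Aldoa), -0.08 to 0.07 (Tpi1), -0.06 to 0.11 (Gapdh), -0.07 to 0.05 (Pgam1), -0.03 to 0.09 (Eno2) and -0.06 to 0.07 (Pkm). The hTyr minus EYFP ratios in IP ranged over -0.09 to 0.02 (Ldhb/Ldha), -0.02 to 0.01 (Pfkm/Pfkp), -0.03 to 0.11 (Pfkm/Pfkl) and -0.24 to 0.01 (Slc2a3/Slc2a1).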

Other observations

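The genes Pdk1 to Pdk4, kinases that switch off pyruvate dehydrogenase, did not share one direction between IP and input in EYFP animals. Pdk3 (0.32, SE 0.12) and Pdk4 (0.55, SE 0.16) were higher in the IP and Pdk2 (-0.23, SE 0.07) was lower, each past limma's threshold, while Pdk1 was at 0.00 (SE 0.09). In hTyr animals Pdk3 and Pdk2 passed between IP and input as well, but Pdk4 did not. Of the 4 subunits of succinate dehydrogenase, Sdha (0.56) and Sdhb (0.50) were higher, whereas Sdhc (-0.05) and Sdhd (0.14), the membrane anchors, did not pass. These genes were named after their values were seen.

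Emb, a partner of lactate transporters, was 0.36 higher in EYFP IP and 0.78 higher in hTyr IP, and Slc2a6 was 0.31 and 0.73 higher. Whether these differ between the infusions was tested by the interaction, in which 0 genes of the pathway lists passed.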
